A study of Mus musculus with 9 samples.

Results

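The genes described here carry cells through DNA replication and mitosis, and 34 of them were followed across 9 mouse breast tumours. They were chosen by name, as genes of replication licensing, S phase and mitosis. The rule uses no measured value, though earlier results of these data were known when the genes were chosen. Each of the 34 symbols matched 1 row of the count table, which held 49585 genes, and all 34 were among the 19606 genes with enough reads to be tested. The tumours were spontaneous breast adenocarcinomas of mice with K14-Cre, a recombinase driven in basal epithelium, a Trp53 genotype labelled wm-R172H/fl, and 1 Rosa26 allele with a Cre-dependent Cas9 and EGFP cassette. R172H swaps 1 residue in the domain of p53 that binds DNA, and the meaning of wm and the cells that carry the change are not in the labels. All 9 tumours received adeno-associated virus (AAV), a gene delivery vector, on days 0, 3 and 8 and were taken at the humane endpoint of the animal, at a time and age that no source used here gives. The vector was a control (AAV-Control, 3 tumours) or was meant to delete mutant p53 (AAV-delta-mut-p53, 6 tumours). A pair of the latter, AAV-delta-mut-p53 4 and 5, carry titles that share a number and differ in a suffix, and the labels do not say whether they came from 1 animal.

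A dividing cell first licenses its replication origins by loading the MCM helicase onto DNA with the help of CDC6 and CDT1. Cyclin E and E2F factors then open S phase, in which PCNA holds the polymerases on DNA and enzymes such as ribonucleotide reductase and thymidylate synthase supply nucleotides. Cyclins A and B with CDK1, the transcription factor FOXM1 and the Polo and Aurora kinases drive mitosis, while BUB1, BUBR1 and TTK hold chromosome separation until every kinetochore is attached. Many of these genes are silenced in resting cells and in cells with active p53 by the DREAM complex, which binds promoters through E2F sites and through the cell cycle homology region (CHR). Pathologists use the protein of Mki67 as a marker of dividing cells in breast tumours.

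The libraries held 18581545 to 30953250 counts, and each control library was deeper than each AAV-delta-mut-p53 library. Values below are CPM, counts scaled to a common library total after correction for depth and composition, and means carry ± SD over the tumours of the group. RNA of the targeted gene Trp53 was 39.2 to 48.5 CPM in control tumours and 13.1 to 41.4 CPM in the others, with no call by edgeR (quasi-likelihood test, log2 fold change -0.42, SE 0.37, FDR = 0.78; -0.25 without AAV-delta-mut-p53 1). Counts per gene do not show whether the gene was edited. AAV-delta-mut-p53 2 stood apart from the other 8 tumours in its cell type markers. A sum of 10 epithelial markers was 212 CPM there and 1510 to 5454 CPM in the others, with Epcam at 32.3 CPM against 487 to 1001 CPM. A sum of 10 fibroblast and matrix markers was 37220 CPM against 1705 to 8591 CPM, one of 12 skeletal muscle markers was 44600 CPM against 35.5 to 430 CPM, and one of 8 macrophage markers was 4007 CPM against 456 to 1657 CPM. Of the 12 muscle markers Ckm and Pvalb were at 0 in at least 1 tumour, and no marker of the epithelial, fibroblast and macrophage lists was. Of the 10 epithelial markers 6 were at their lowest in that tumour, and Krt5, Krt14, Krt7 and Cldn4 were lower in another. Of the 10 fibroblast and matrix markers 8 were at their highest there, and Pdgfrb and Lum were higher in another. Postn alone gave 20320 CPM of the fibroblast and matrix sum of that tumour.

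The 34 genes were expressed in every tumour, and their levels differed widely. On a scale corrected for transcript length (TPM, transcript counts as a share of the library), the mean over 9 tumours was highest for Mki67, which encodes the Ki-67 protein that coats mitotic chromosomes, at 189 TPM with a range of 90.3 to 352 TPM. It was followed by Top2a, the topoisomerase that untangles sister DNA, at 105 TPM (36.0 to 183 TPM), and by the polymerase clamp gene Pcna at 95.3 TPM (48.6 to 154 TPM). The lowest were the S-phase transcription factor gene E2f1 at 7.39 TPM (5.24 to 11.1 TPM), the helicase loader gene Cdc6 at 8.15 TPM (3.26 to 19.2 TPM) and its partner Cdt1 at 9.85 TPM (4.39 to 21.4 TPM). Neighbours in this order had overlapping ranges over the tumours. The 6 subunits of the MCM helicase, which are used in equal numbers in the hexamer, ran from 38.9 TPM for Mcm2 to 82.6 TPM for Mcm6, with Mcm5 at 42.7, Mcm3 at 59.6, Mcm7 at 61.6 and Mcm4 at 71.5 TPM. Lengths are the union of annotated exons, so a gene with many annotated isoforms appears lower on this scale than one with few.

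In the promoters of these genes, CHR letters were found mostly in mitotic genes and E2F letters mostly in licensing and S-phase genes, a count with no test. RefSeq promoter windows on GRCm38.p6, from 250 bases before to 50 bases after the start of the gene, were found for 27 of the 34 genes, and not for Aurkb, Tpx2, Ccne2, Mcm4, Kif20a, Ccna2 and Foxm1. The letters TTTGAA, the CHR, on either strand were present in 11 of 15 windows of mitotic genes, in 1 of 12 windows of licensing, G1/S and DNA synthesis genes, and in 20.2% of 27025 genes with a window. The letters TTTNNCGC, an E2F site with N for any base, were present in 1 of 15 and 7 of 12, against 5.93% of all genes. The CCAAT box, which NF-Y binds, was present in 13 of 15 and 7 of 12, against 41.1% of all genes. TTTAAA, a CHR variant, was present in 5 of 15 and 3 of 12, against 14.9%, and the comparison motif CNGGAAGTG, an ETS-like site, in 1 of 15 and 0 of 12, against 4.88%. CHR and E2F letters stood together in the window of Cdk1. A match of letters is a description and does not show that a factor binds.

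Before the gene start in both RefSeq and GENCODE, Mcm2 had 1 CHR and no E2F match, and Mcm3 and Cdt1 had neither. Of the mitotic genes, Aurka, Bub1, Bub1b, Plk1 and Ttk, among others, had no CHR match there. Below, in the direction of the gene, capitals mark the CHR, its variant, the NF-Y box and the E2F site on either strand. The stretches shown are of 4 mitotic genes with a CHR match and 2 licensing genes with an E2F match. They are Mki67 (chr7:135716380-135716629, minus strand, 2 CHR and 3 CCAAT matches), Top2a (chr11:99024190-99024439, minus strand, 2 CHR and 6 CCAAT matches), Cdc20 (chr4:118437353-118437593, minus strand, 1 CHR and 1 CCAAT match), Cdk1 (chr10:69352939-69353162, minus strand, 1 CHR, 3 CCAAT and 1 E2F match), Mcm5 (chr8:75109259-75109508, plus strand, 1 TTTAAA, 2 CCAAT and 2 E2F matches, which overlap) and Mcm6 (chr1:128359706-128359955, minus strand, 2 CCAAT and 3 E2F matches, of which 2 overlap).
Mki67: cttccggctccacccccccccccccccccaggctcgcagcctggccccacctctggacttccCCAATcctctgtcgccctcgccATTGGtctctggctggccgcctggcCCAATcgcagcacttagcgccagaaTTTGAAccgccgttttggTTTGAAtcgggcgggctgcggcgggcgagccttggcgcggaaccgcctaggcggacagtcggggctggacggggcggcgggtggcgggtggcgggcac
Top2a: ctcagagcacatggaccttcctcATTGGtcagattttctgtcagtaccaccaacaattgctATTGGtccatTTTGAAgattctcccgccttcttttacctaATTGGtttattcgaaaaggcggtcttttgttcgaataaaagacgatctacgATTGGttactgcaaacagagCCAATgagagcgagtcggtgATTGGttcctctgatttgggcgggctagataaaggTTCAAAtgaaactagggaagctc
Cdc20: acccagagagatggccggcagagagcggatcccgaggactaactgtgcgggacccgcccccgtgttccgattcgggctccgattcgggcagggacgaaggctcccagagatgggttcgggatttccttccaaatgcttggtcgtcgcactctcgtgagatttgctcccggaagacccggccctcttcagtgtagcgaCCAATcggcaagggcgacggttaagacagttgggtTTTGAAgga
Cdk1: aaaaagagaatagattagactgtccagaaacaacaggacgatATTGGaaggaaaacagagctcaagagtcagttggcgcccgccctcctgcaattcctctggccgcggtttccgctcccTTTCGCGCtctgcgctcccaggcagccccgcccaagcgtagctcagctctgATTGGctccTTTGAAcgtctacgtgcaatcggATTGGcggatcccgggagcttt
Mcm5: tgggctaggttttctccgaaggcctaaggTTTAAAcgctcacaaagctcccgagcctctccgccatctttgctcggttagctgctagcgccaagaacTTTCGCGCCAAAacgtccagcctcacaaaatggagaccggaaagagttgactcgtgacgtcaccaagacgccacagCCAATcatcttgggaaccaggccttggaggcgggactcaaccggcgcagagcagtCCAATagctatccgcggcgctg
Mcm6: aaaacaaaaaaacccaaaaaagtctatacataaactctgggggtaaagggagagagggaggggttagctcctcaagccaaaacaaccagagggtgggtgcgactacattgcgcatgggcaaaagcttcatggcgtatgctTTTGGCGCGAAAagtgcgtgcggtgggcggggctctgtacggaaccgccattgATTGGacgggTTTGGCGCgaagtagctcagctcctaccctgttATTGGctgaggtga

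The main comparison asked whether genes of replication and mitosis differed after the vector against mutant p53. None of the 34 genes passed edgeR's quasi-likelihood test at a false discovery rate (FDR) of 0.05, and the smallest FDR among them was 0.677. The same test called 0% of the 19606 genes, so no gene was called in or outside the set. At an unadjusted p under 0.05 there were 3 members, Cenpa, Mki67 and Tyms, all with lower means in AAV-delta-mut-p53 tumours, against 7.07% of all genes in either direction and 3.26% on the lower and 3.82% on the higher side. Without AAV-delta-mut-p53 2 there were again 3, Cenpa, Tyms and Ccnb1, all lower, against 8.79% of all genes. DESeq2 called 0 members at the same FDR and had 2 at an unadjusted p under 0.05, against 0.53% and 9.8% of all genes. Limma voom with sample quality weights called 0 members, as it called 0% of all genes, and had 4 members at an unadjusted p under 0.05, against 10.4% of all genes.

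Though none passed, 29 of the 34 genes had a lower fitted mean in AAV-delta-mut-p53 tumours, where 44.4% of all genes did. The median log2 fold change of the members was -0.34, against 0.09 for all genes tested. The 29 did not include the helicase subunits Mcm3 and Mcm5, the loaders Cdc6 and Cdt1, or Rrm2. Without AAV-delta-mut-p53 2 the count was 22 of 34, against 46.7% of all genes, and the median was -0.14, against 0.05 for all genes. The means of all 34 genes are linked, since the same tumours set them, so these counts describe 9 tumours and not 34 separate results.

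**Figure D1:**
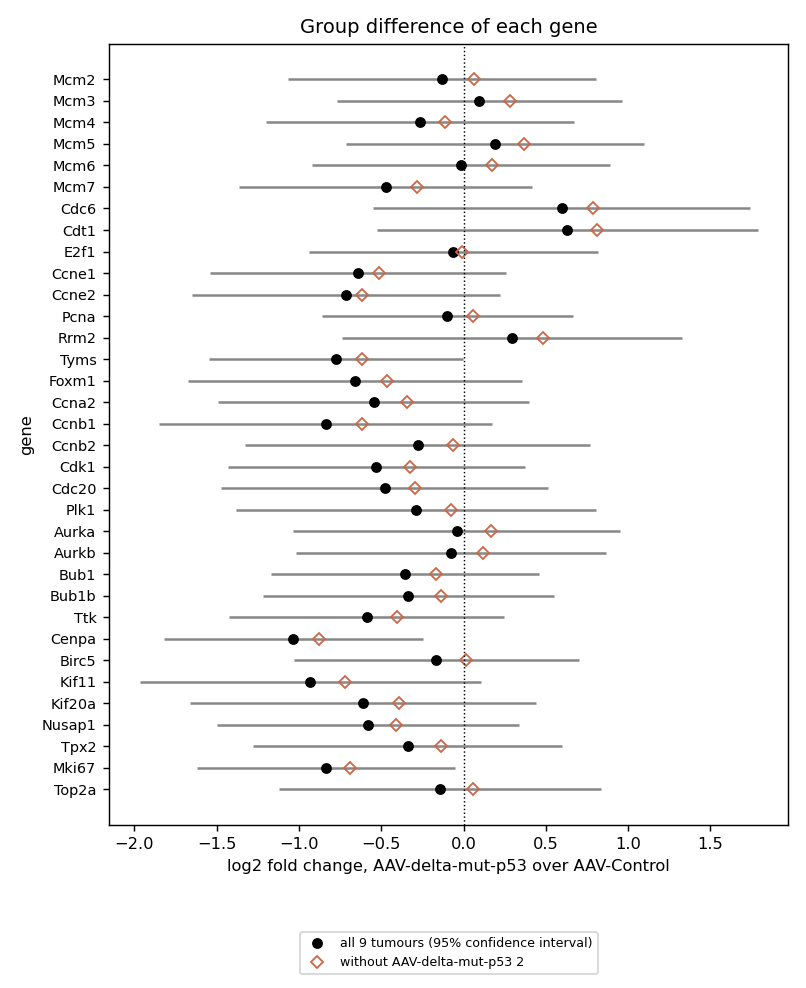
Log2 fold change of each gene, AAV-delta-mut-p53 over AAV-Control, with black points for all 9 tumours, grey bars for the 95% confidence interval of edgeR's fit and open diamonds for the fit without AAV-delta-mut-p53 2. The intervals of Cenpa, Mki67 and Tyms lie below 0, and leaving out that tumour moves the values of all 34 genes up.

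Replication licensing genes had no shared direction. Of 8, 4 had a higher and 4 a lower mean in AAV-delta-mut-p53 tumours, with a median log2 fold change of 0.04 and a range from -0.47 for Mcm7 (-0.28 without AAV-delta-mut-p53 2) to 0.63 for Cdt1. Mcm6 differed least, at 173 ± 7.35 CPM (n = 3) in controls and 172 ± 72.5 CPM (n = 6) in the other group, with a log2 fold change of -0.01 (95% confidence interval -0.92 to 0.89). Its control values of 165, 175 and 180 CPM lay close together, while AAV-delta-mut-p53 tumours ran from 56.8 CPM to 247 CPM. Mcm2, Mcm3, Mcm4 and Mcm5 had log2 fold changes between -0.26 and 0.19. Without AAV-delta-mut-p53 2 the even split did not hold. Only 2 of the 8 then had a lower mean, against 46.7% of all genes. The median was 0.23, against 0.05 for all genes.

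Cdc6 and Cdt1, which load the helicase, were the 2 members with the highest log2 fold changes, though neither passed the test. Cdc6 was 10.8, 14.1 and 17.4 CPM in AAV-Control 1 to 3, and in AAV-delta-mut-p53 tumours its lowest value was 6.78, its median 19.98 and its highest 42.2 CPM. Of these 6 tumours, 4 (numbers 3 to 6) lay above every control, and AAV-delta-mut-p53 2 lay below every control. The log2 fold change was 0.60 (SE 0.52, FDR = 0.78 in edgeR's test) with all tumours, 0.79 without AAV-delta-mut-p53 2 and 0.28 without AAV-delta-mut-p53 3. Cdt1, which geminin inhibits after S phase begins, was 10.8, 14.2 and 5.93 CPM in controls, and 5.49, 15.8 and 26.1 CPM as the lowest, median and highest of the other group. AAV-delta-mut-p53 3, 4 and 6, at 21.8, 20.1 and 26.1 CPM, lay above the controls, and its log2 fold change was 0.63 (SE 0.52, FDR = 0.77 in edgeR's test). Leaving out AAV-Control 3 brought it to 0.34, and leaving out AAV-Control 2 to 0.93.

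Among the G1/S regulators, the cyclin E genes had lower means and E2f1 did not differ beyond its spread. Ccne1, the partner of CDK2 at S-phase entry, was 30.9, 20.1 and 31.8 CPM in controls. It was 10.3 to 13.2 CPM in AAV-delta-mut-p53 1, 2, 4 and 6, below every control, and 29.97 and 26.6 CPM in numbers 3 and 5, within the control range. Its log2 fold change was -0.64 (SE 0.41, FDR = 0.70 in edgeR's test). Ccne2, its relative, was 40.6, 56.3 and 84.5 CPM in controls and 15 to 65.7 CPM in the other group, with the lowest value in AAV-delta-mut-p53 6 and the highest in number 5. The log2 fold change of Ccne2 was -0.71 (SE 0.42, FDR = 0.69 in edgeR's test). E2f1 was 6.76 to 15.8 CPM in controls and 6.75 to 14.0 CPM in the other group. E2f1 and Ccne2 were the 2 members for which AAV-delta-mut-p53 2 was not the lowest of the 9 tumours, and AAV-delta-mut-p53 6 was.

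Of the 3 DNA synthesis genes, Tyms, which makes thymidylate, had an unadjusted p under 0.05. It was 67.3, 73.1 and 62.2 CPM in controls, and the lowest, median and highest of the other group were 17.6, 38.5 and 65.0 CPM. AAV-delta-mut-p53 3 alone lay within the control range, and the other 5 lay below it. The log2 fold change was -0.77 (SE 0.35, unadjusted p = 0.0494, FDR = 0.677 in edgeR's test), and -0.62 without AAV-delta-mut-p53 2. Rrm2, the small subunit of ribonucleotide reductase, was 38.9 ± 7.16 CPM among controls (n = 3) and 47.7 ± 23.9 CPM after the deleting vector (n = 6), and AAV-delta-mut-p53 1, 3 and 6, at 63.5, 71.9 and 69.85 CPM, lay above every control. Pcna was 108 ± 11.2 CPM among controls (n = 3) and 101 ± 36.5 CPM after the deleting vector (n = 6).

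**Figure D2:**
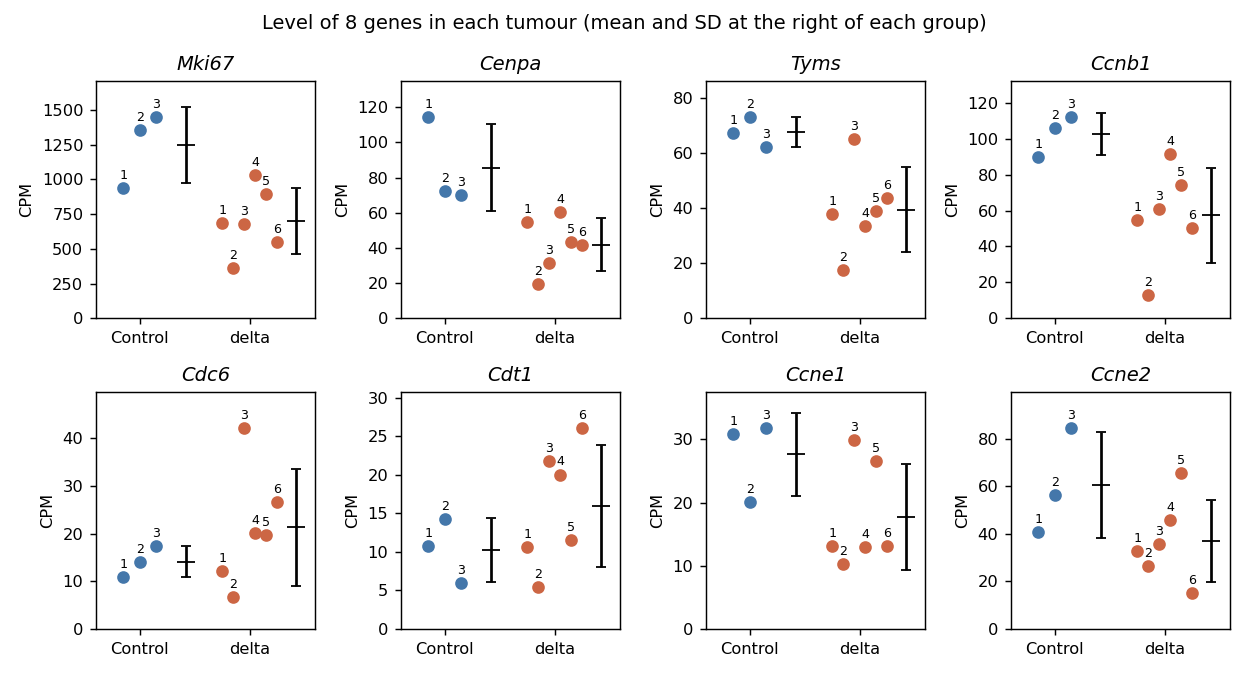
CPM of 8 genes in each tumour, with the replicate number above each point, blue points for AAV-Control (n = 3), orange points for AAV-delta-mut-p53 (n = 6) and the mean with SD to the right of each group. Cenpa is the gene whose groups do not overlap, while Cdc6 and Cdt1 reach their highest values in AAV-delta-mut-p53 3 and 6.

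All 20 mitotic genes had a lower mean in AAV-delta-mut-p53 tumours, against 44.4% of all genes, and none passed edgeR's test. Their log2 fold changes ran from -1.03 for Cenpa to -0.04 for Aurka, with a median of -0.50. The count was 20 with library size alone and with DESeq2's size factors, against 43.8% and 44% of all genes. With limma voom it was 19, against 51.2%. Without AAV-delta-mut-p53 2 it was 16, against 46.7%, and the median was -0.31. The genes with the smallest difference were the Aurora kinase genes Aurka and Aurkb, which act on centrosomes and on centromeres, and their sign turned without that tumour, to 0.17 and 0.12. The signs of Birc5 and Top2a turned too, to 0.01 and 0.06.

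Mki67 was 939, 1357 and 1449 CPM in AAV-Control 1 to 3. In AAV-delta-mut-p53 1 to 6 it was 686, 362, 679, 1029, 897 and 546 CPM. AAV-delta-mut-p53 4 lay above AAV-Control 1, so the groups overlapped, and the other 5 lay below every control. Its log2 fold change of -0.83 had an interval that excluded 0 (95% confidence interval -1.62 to -0.05, unadjusted p = 0.0391, FDR = 0.677 in edgeR's test), and it was -0.69 (unadjusted p = 0.0528, FDR = 0.57) without AAV-delta-mut-p53 2. In bulk RNA, fewer dividing cells and less Mki67 RNA per cell cannot be told apart. Top2a, often read with Mki67, was 319, 370.0 and 674.5 CPM in controls and 129 to 538 CPM in the other group, and its log2 fold change of -0.14 was 0.06 without AAV-delta-mut-p53 2.

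Cenpa, the histone H3 variant that marks centromeres, was the 1 member whose groups did not overlap, in a table where 1.59% of genes were lower without overlap and 1.47% were higher. It was 114, 72.2 and 70.3 CPM in AAV-Control 1 to 3. In AAV-delta-mut-p53 1 to 6 it was 54.9, 19.4, 31.1, 60.3, 43.4 and 41.7 CPM. The highest of these, in number 4, lay below the lowest control. The log2 fold change was -1.03 (SE 0.36, unadjusted p = 0.0148, FDR = 0.677 in edgeR's test). It was -0.88 without AAV-delta-mut-p53 2, where the groups again did not overlap, as for 2.74% of genes on the lower and 2.55% on the higher side, and between -1.17 and -0.77 with each tumour left out in turn. Its FDR was 0.288 in DESeq2 and 0.256 in limma voom.

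The genes of the spindle checkpoint and the centromere other than Cenpa had log2 fold changes from -0.59 to -0.16. Bub1 and Bub1b, which delay anaphase, were 64.3 ± 3.88 and 120.1 ± 6.59 CPM (n = 3) in controls and 50.2 ± 16.7 and 95.2 ± 37.7 CPM (n = 6) in the other group. Without AAV-delta-mut-p53 2 their log2 fold changes were -0.17 and -0.14. Ttk, the kinase that starts the checkpoint, was 45.0, 42.4 and 69.5 CPM in controls and 12.5 to 44.0 CPM in the other group, with a log2 fold change of -0.59 (SE 0.38, FDR = 0.70 in edgeR's test) that shrank to -0.34 when AAV-Control 3 was left out. Birc5, or survivin, the passenger protein that brings Aurora B to centromeres, was 69.0, 41.6 and 71.5 CPM in controls and 20.9 to 75.3 CPM in the other group, highest of all in AAV-delta-mut-p53 1.

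Among the drivers of mitotic entry and exit, Ccnb1 had the largest difference. Cyclin B1 RNA was 89.8, 106 and 112 CPM in controls, and 12.8, 57.9 and 91.4 CPM as the lowest, median and highest of the other group. AAV-delta-mut-p53 4 lay just above AAV-Control 1, and the rest lay below every control. The log2 fold change was -0.84 (SE 0.46, FDR = 0.68 in edgeR's test), and -0.62 without AAV-delta-mut-p53 2. The other cyclin B gene, Ccnb2, had a log2 fold change of -0.28, and -0.07 without AAV-delta-mut-p53 2. Foxm1, the factor that switches on late cell cycle genes, was 62.3 to 91.6 CPM in controls and 15.7 to 80.6 CPM in the other group. Cdk1 was 131 ± 19.4 CPM among controls (n = 3) and 91.0 ± 35.1 CPM after the deleting vector (n = 6), and Ccna2, cyclin A2, 201 ± 79.3 CPM among controls (n = 3) and 138 ± 49.3 CPM after the deleting vector (n = 6).

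Cdc20, Plk1, Aurka and Aurkb stood highest in AAV-delta-mut-p53 4, with Aurka at 75.6 CPM and Aurkb at 53.1 CPM. Cdc20, which activates the anaphase-promoting complex, was 102 CPM there, 60.3 to 85.1 CPM in controls, and 19.1 to 76.1 CPM in the remaining AAV-delta-mut-p53 tumours. Plk1, the Polo kinase, was 66.6 CPM there, 32.9 to 45.3 CPM in controls and 8.07 to 37.4 CPM in the remaining ones. Of the spindle genes, the motor gene Kif11 was 429, 237 and 420.5 CPM in controls and 48.9 to 301 CPM in the other group, with a log2 fold change of -0.93 (SE 0.47, FDR = 0.677 in edgeR's test). Kif20a, needed for cytokinesis, had a log2 fold change of -0.61, and -0.39 without AAV-delta-mut-p53 2. Tpx2, which activates Aurora A, was at -0.34, and at -0.14 without the same tumour. Nusap1, a microtubule bundler, was at -0.58, and at -0.25 without AAV-Control 3.

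The largest differences among these genes were between single tumours. In AAV-delta-mut-p53 2 the median ratio to the control mean over the 34 genes was 0.269, with a range from 0.125 for Ccnb1 to 0.793 for E2f1. There, 33 of the 34 genes were below every control, against 33% of all genes, and for 32 it was the lowest of the 9 tumours, against 19.1% of all genes. In this tumour Epcam was 32.3 CPM against 490 to 722 CPM in controls, and the epithelial, fibroblast, muscle and macrophage sums given above differed in the same tumour. The part of that difference in make-up in the lower cell cycle values was not tested. Leaving mitochondrial, muscle and erythroid genes out of the library totals changes only the scaling, so it cannot show the part of the make-up. With that scaling the median log2 fold change of the members over all 9 tumours was -0.33, against -0.34 in the main fit.

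The other AAV-delta-mut-p53 tumours differed among themselves. The median ratio to the control mean was 0.788, 1.095, 0.893, 0.818 and 0.725 in numbers 1, 3, 4, 5 and 6, and 0.94 to 1.07 in controls. In number 6, 19 of the 34 genes were below every control, against 31.6% of all genes, and 6 were above, against 31.6%. Numbers 1 and 5 had 16 genes each below every control, against 27.5% and 22.2% of all genes. Number 3 had 14 genes above every control, against 29.7%, and 9 below, against 32.4%. Number 4 had 7 above and 10 below, against 27.8% and 28.1%.

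**Figure D3:**
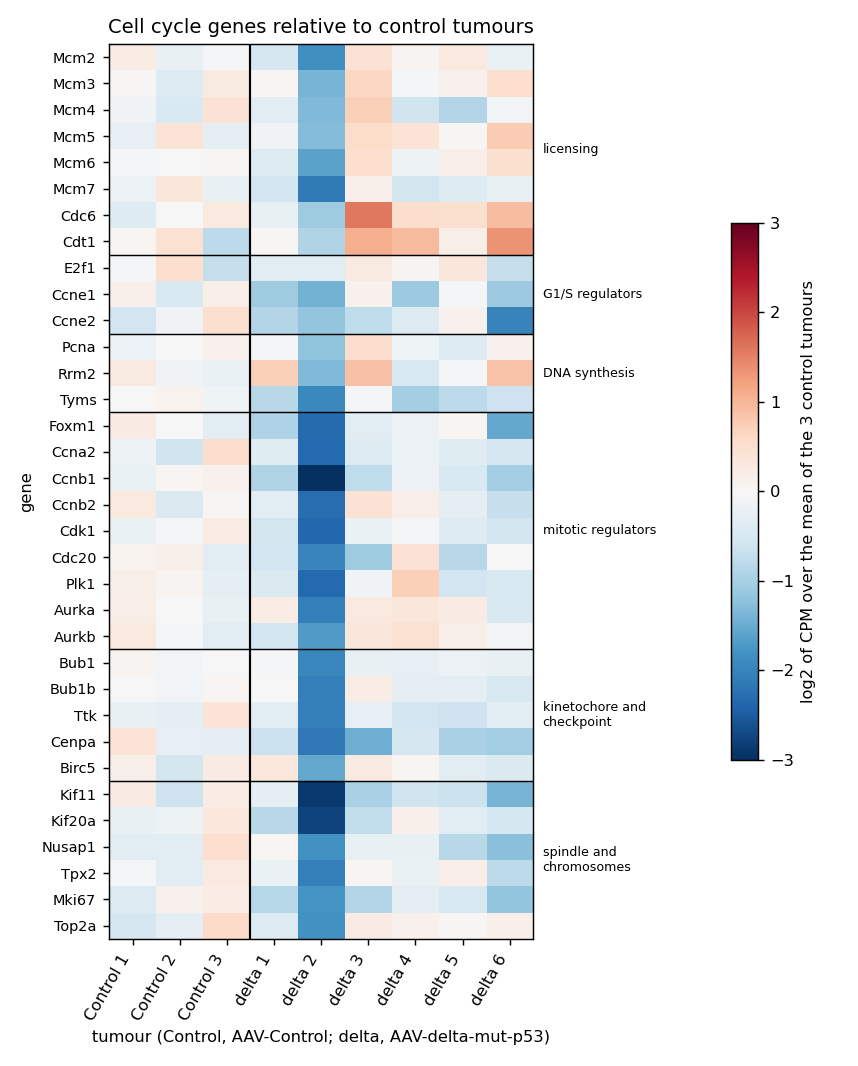
Heat map of the log2 ratio of each gene's CPM to the mean of the 3 control tumours, with genes as rows grouped by role and tumours as columns. AAV-delta-mut-p53 2 is below the control mean in every row, least so for E2f1, and AAV-delta-mut-p53 3 and 6 are above it in most licensing rows and below it in most mitotic rows.

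Licensing genes and mitotic genes stood in different order in the tumours other than AAV-delta-mut-p53 2. The mean log2 CPM of the 8 licensing genes was 6.00, 6.10 and 6.05 in controls and 6.78 and 6.52 in AAV-delta-mut-p53 3 and 6, the highest of the 9 tumours. The mean of the 20 mitotic genes was 6.83, 6.65 and 6.93 in controls and 6.54 and 6.19 in the same 2 tumours. It was below every control there and also in AAV-delta-mut-p53 1, 2 and 5, at 6.45, 4.67 and 6.49. The licensing mean minus the mitotic mean was therefore 0.24 and 0.33 there, against -0.83, -0.55 and -0.88 in controls. For AAV-delta-mut-p53 1, 4 and 5 it came to -0.62, -0.63 and -0.40, and for number 2 to -0.04. Tumours 1 and 4 lay within the control range, so the groups overlapped. Across 8 tumours without AAV-delta-mut-p53 2, the median Pearson r of log2 CPM was -0.12 over 160 pairs of a licensing and a mitotic gene, 0.42 over 28 pairs of licensing genes and 0.38 over 190 pairs of mitotic genes. With all 9 tumours these medians were 0.65, 0.77 and 0.83. The points share libraries and depth, and the r values are descriptive.

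**Figure D4:**
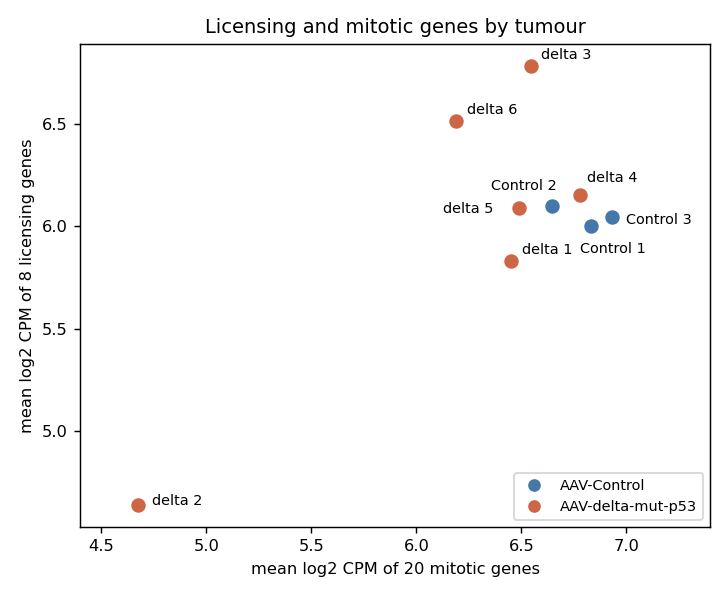
Mean log2 CPM of the 8 licensing genes (vertical) against that of the 20 mitotic genes (horizontal), 1 point per tumour, blue for AAV-Control and orange for AAV-delta-mut-p53. AAV-delta-mut-p53 2 lies far to the lower left (4.67 mitotic, 4.64 licensing), and AAV-delta-mut-p53 3 and 6 lie above the other tumours on the vertical axis.

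Single members departed from the rest of the set within a tumour. After the gene's mean and the tumour's mean over the 34 genes were removed, Cdt1 varied most, with an SD of 0.72 on the log2 scale, followed by Ccne2 at 0.71, E2f1 at 0.64 and Cdc6 at 0.60. Bub1 and Bub1b followed the set most closely, with an SD of 0.18 each. The largest single departures were Cdt1 in AAV-Control 3, at -1.43, Ccne2 in AAV-delta-mut-p53 6, at -1.37, and E2f1 in AAV-delta-mut-p53 2, at 1.27. Reads of the pairs Ccna2 and Exosc9, Ccne2 and Ints8, Kif20a and Cdc23, Mcm7 and Ap4m1 or Cops6, Cdc20 and Elovl1, Plk1 and Gm44985, and Nusap1 and Oip5 can be mixed where their exons overlap on opposite strands, since no source used here gives the strand setting of the counting. Pcna, Tyms, Ccnb1 and Ccnb2 have annotated pseudogenes that can take some of their reads.

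Other cell cycle genes, 159 in 7 lists, also had mostly lower means. None passed edgeR's test, and 119 had a lower mean, against 44.4% of all genes, with a median log2 fold change of -0.28. At an unadjusted p under 0.05 there were 9, a share no larger than the 7.07% of all genes in either direction. Of the 9, 8 were lower and 1 was higher, against 3.26% and 3.82% of all genes. AAV-delta-mut-p53 2, with the shifted cell type markers given above, was the lowest of the 9 tumours for 123 of the 159, against 19.1% of all genes, and the part of its make-up was not tested here either. Without it, an alternative chosen after seeing the data, 101 of the 159 had a lower mean, against 46.7% of all genes, and the median was -0.14. Of 61 further mitotic genes 58 had a lower mean (median -0.43), and 48 without that tumour (median -0.25). Of 23 origin and fork genes 18 had a lower mean (median -0.17), and 15 without it (median -0.04). Of 28 DNA synthesis genes 18 had a lower mean (median -0.18), and 14 without it (median -0.01). Kif4, a chromosome motor gene, was 104 ± 35.7 CPM (n = 3) in controls and 49.6 ± 18.8 CPM (n = 6) in the other group, with a log2 fold change of -1.07 (SE 0.38, FDR = 0.677 in edgeR's test). Pola1, the catalytic subunit of the polymerase that primes replication, was 154 ± 68.9 CPM among controls (n = 3) and 75.1 ± 15.8 CPM after the deleting vector (n = 6), and its log2 fold change was -1.03, or -0.68 with AAV-Control 2 left out. Cdc7, the kinase that fires licensed origins, was 91.3, 74.7 and 132 CPM in controls and 26.1 to 84.8 CPM in the other group, with a log2 fold change of -1.05. Rpa2, a subunit of the protein that coats single-stranded DNA, had a log2 fold change of -0.71 (-0.43 without AAV-Control 2). In the list of 15 checkpoint and repair genes, 9 had a lower mean and 0 had an unadjusted p under 0.05, with Rad54l and Blm, both of homologous recombination, at -0.68 and -0.67. The lower means of Wdhd1, a replication fork gene, and Dlgap5, a spindle gene, rested on AAV-Control 3: their log2 fold changes of -1.18 and -1.26 were 0.08 and -0.23 without it. The kinetochore gene Spc25, named after its values were seen, was 33.4 to 39.4 CPM in controls and 7.98 to 30.9 CPM in the other group, with no overlap. Spc25 and Cdkn1c were the 2 of 159 genes that were lower without overlap, against 1.59% of all genes, so the count does not exceed that share.

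Regulators upstream of these genes were mixed. Of 17 DREAM, RB and E2F genes 8 had a higher and 9 a lower mean. Rb1, the retinoblastoma gene that restrains E2F, was 25.5, 40.3 and 34.5 CPM in controls and 32.0 to 112 CPM in the other group, with a log2 fold change of 0.89 (SE 0.39, FDR = 0.677 in edgeR's test). E2f7, a repressor of E2F targets, had a log2 fold change of -0.71, which was -0.45 without AAV-Control 3. E2f4, the E2F factor of the DREAM complex, also named after its values were seen, was 20.2 to 25.7 CPM in controls and 28.0 to 41.5 CPM in the other group, with no overlap and a log2 fold change of 0.47 (SE 0.27, FDR = 0.69 in edgeR's test). It was the 1 gene of 159 that was higher without overlap, against 1.47% of all genes. Among the G1 genes, Ccnd1 and Myc had log2 fold changes of -0.42 and 0.03, with FDR of 0.84 and 0.99 in edgeR's test, and the first was -0.12 without AAV-Control 2. Ccnd2, cyclin D2, was 819, 193 and 520 CPM in controls and 100 to 412 CPM in the other group, and its log2 fold change of -1.12 was -0.60 without AAV-Control 1. Cdk6, the kinase that cyclin D activates, was 58.1 to 85.5 CPM in controls and 38.8 to 366 CPM in the other group, above every control in AAV-delta-mut-p53 1, 3, 5 and 6.

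Of 8 CDK inhibitor genes 4 had a higher and 4 a lower mean. Cdkn1c, which encodes p57, a brake on cyclin E and A kinases, was 100, 72.5 and 114 CPM in AAV-Control 1 to 3. In AAV-delta-mut-p53 1 to 6 it was 3.14, 34.9, 1.22, 5.90, 40.8 and 1.14 CPM, and the groups did not overlap, as for 1.59% of all genes on the lower side. The log2 fold change was -2.72 (SE 1.02, unadjusted p = 0.0231, FDR = 0.677 in edgeR's test; FDR = 0.243 in DESeq2), and it lay between -3.33 and -2.45 with each tumour left out in turn. The 4 lowest values were those of AAV-delta-mut-p53 1, 3, 4 and 6. Cdkn3, a phosphatase that acts on CDKs, had a log2 fold change of -1.42, which was -0.08 without AAV-Control 3. Cdkn1a, which encodes the p53-induced inhibitor p21, was 5.22 to 11.7 CPM in controls and 3.62 to 20.4 CPM in the other group, with the highest value in AAV-delta-mut-p53 6 and a log2 fold change of 0.37 (SE 0.59, FDR = 0.89 in edgeR's test), which was 0.03 without that tumour.

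**Figure D5:**
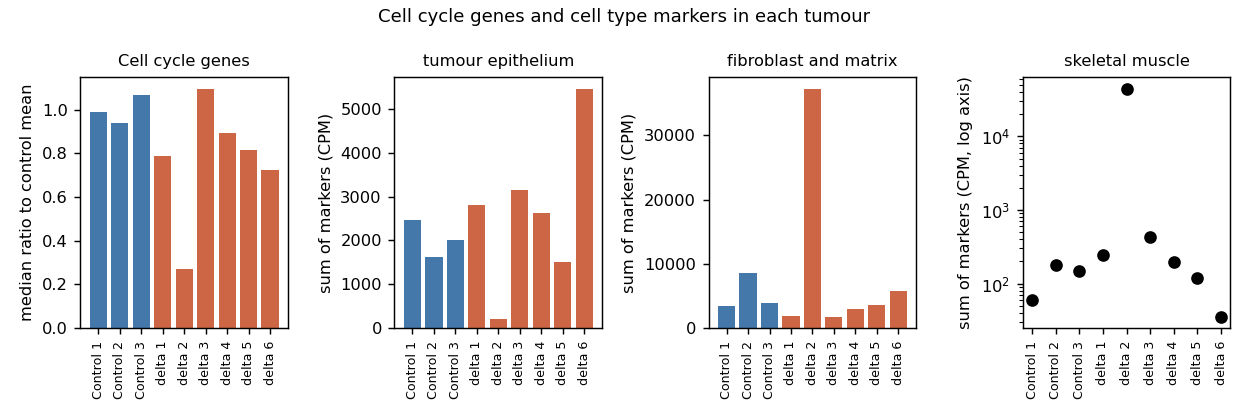
Median ratio of the 34 cell cycle genes to the control mean, and summed CPM of 10 epithelial, 10 fibroblast and matrix and 12 skeletal muscle markers, 1 bar or point per tumour (blue AAV-Control, orange AAV-delta-mut-p53; the muscle axis is logarithmic, with black points). AAV-delta-mut-p53 2 has the lowest cell cycle and epithelial values, 0.269 and 212 CPM, and the highest fibroblast and muscle values.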

How the data were processed

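Total RNA of flash-frozen breast tumours was made into strand-specific libraries, per the labels' protocols. The authors deposited raw read counts per gene, 1 column per tumour, in whole numbers. STAR 2.6.0b, DESeq2 and the build GRCm38 are listed, without roles, in the submitters' processing notes. No source used here gives the counting program, strand setting or annotation release. Symbols were found for 49326 of 49585 identifiers. Positions and exonic lengths come from GENCODE mouse release 21 on GRCm38 and promoters from RefSeq on GRCm38.p6.

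The counts were scaled by library size and TMM factors and tested with edgeR 4.0.16 in R 4.3.3 (quasi-likelihood, 2-sided, no covariate), after filterByExpr with a minimum count of 10. P-values were adjusted by the Benjamini-Hochberg method over the 19606 genes tested. DESeq2 1.42.0, limma 3.58.1 (voom with sample quality weights), other filters and scalings, the sum of the pair with a shared title number and each tumour left out in turn were alternatives. The tests were tried on simulated counts. Mean log2 CPM used a prior count of 2. The labels do not say that the tumours came from separate animals, so the p-values measure only the spread between these samples. No 2 libraries agreed within sampling noise, since the smallest chi-square per gene between any pair was 114.

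The members and lists were chosen with earlier results of these data known. The text names all 34 members, the 2 genes of each other list with the smallest p at a mean of at least 1 CPM, Cdkn1a, Ccnd1, Myc and Rb1, and the targeted gene Trp53. Spc25, E2f4 and the neighbouring genes on chromosomes 11 and 14 were added after their values were seen, as was the comparison of the other lists without AAV-delta-mut-p53 2.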

Additional observations from a re-analysis of the deposited data

Results flagged for a closer look

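In AAV-delta-mut-p53 2 the log2 CPM of 11 members and of 2 means over members lay far below the other 5 tumours of its group, by Dixon's ratio of the gap to the nearest tumour over the whole range of the group. The ratio was 0.895 for Bub1, 0.846 for Ccna2, 0.796 for Ttk, 0.787 for Cdk1, 0.695 for Ccnb1, 0.686 for Mcm7, 0.685 for Bub1b, 0.677 for Top2a, 0.664 for Kif20a, 0.663 for Aurka and 0.662 for Mcm3. It was 0.783 for the mean of all 34 members and 0.72 for the mean of the 20 mitotic genes. In all, 38 values were examined and 13 stood out. All 13 were the low value of this 1 tumour, so they are not 13 separate findings. Chance alone marks about 5% of such groups, but the share of all genes that the rule marks in this tumour was not computed. The tumour was the lowest of the 9 for 19.1% of all genes. The epithelial marker sum was also lowest and the fibroblast, muscle and macrophage sums highest in this tumour, and their part in the low values was not tested.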

How the results depend on the processing

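The count of members past an FDR of 0.05 was 0 under every alternative run. Over all genes it was 0 with edgeR and limma voom and 104 with DESeq2, none of them a member. Members with groups that do not overlap numbered 1, and 2 with library size alone. They numbered 1 to 6 with each tumour left out in turn (6 without AAV-Control 2), where fewer samples make overlap less likely. Of all genes, 1.59% were lower and 1.47% higher without overlap in the main fit. These shares were 2.74% and 2.55% with AAV-delta-mut-p53 2 left out, where the members numbered 1. For the other settings the share was not computed, so their counts are not a result about the members. The median log2 fold change of the members ran from -0.45 to -0.14 with each tumour left out (-0.14 without AAV-delta-mut-p53 2) and was -0.41 with AAV-delta-mut-p53 4 and 5 summed. Of 544 values of single members under alternatives 521 kept their sign and 23, in 10 members, did not. With a tumour left out, the log2 fold change ran from -0.28 to 0.0659 for Mcm2, -0.0507 to 0.28 for Mcm3, -0.57 to 0.0049 for Mcm4, -0.15 to 0.17 for Mcm6, -0.32 to 0.29 for E2f1, -0.26 to 0.0559 for Pcna, -0.14 to 0.17 for Aurka, -0.22 to 0.12 for Aurkb, -0.37 to 0.0126 for Birc5 and -0.34 to 0.25 for Top2a. With limma voom E2f1 was 0.0078 and Top2a 0.13; the cause was not tested. No paired analysis was possible because the replicate numbers only follow the order of the samples and pair none of them.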

Other observations

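The neighbours of 4 cell cycle genes stood high in single tumours. Both regions were chosen after the values were seen, and no cause was tested. On chromosome 14 (GRCm38), 16 genes averaging 1 CPM or more lay between 46383520 and 48281575. In AAV-Control 3, 11 of the 16 were the highest of the 9 tumours and at least 2 times the median of the others, against 4.64% of all genes tested. They lay between 46760541 and 47739894 and included Cdkn3 at 61.5 CPM (median of the others 9.13 CPM), Wdhd1 at 140.4 CPM (28.9 CPM), Dlgap5 at 251 CPM (53.2 CPM) and Ktn1, a kinesin-binding protein gene with no cell cycle role in the lists, at 792 CPM (171 CPM).

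On chromosome 11, 37 such genes lay between 97923238 and 99493137, around Cdc6. In AAV-delta-mut-p53 3, 18 of the 37 were the highest of the 9 tumours, against 12.4% of all genes, and 13 were also at least 2 times the median of the others, against 5.78%. Cdc6 was 42.2 CPM (median of the others 15.7 CPM) and the receptor gene Erbb2 was 113 CPM (32.7 CPM), with Stard3 at 70.4 CPM (28.6 CPM) and Grb7 at 25.4 CPM (9.56 CPM). Top2a, in the same region, was 538 CPM (417 CPM) and was not the highest.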
